A study of Mus musculus with 14 samples.

Results

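The Zfp genes, the mouse genes whose symbol is Zfp followed by a number, were examined in hippocampal RNA-seq of mice kept under normal or reduced oxygen. They were chosen by symbol alone, and 207 of the 7756 genes in the deposited count table carried such a symbol. All mice were wild-type male C57BL/6J animals aged 8 weeks, and exposures lasted 28 days. The intermittent hypoxia (IH) group, 5 libraries, breathed 10% and 21% oxygen by turns, with a cycle of 2 min, during 8 h of each day. The sustained hypoxia (SH) group, 5 libraries, received 10% oxygen for 8 h each day, and the control group, 4 libraries, remained at 21%. According to the study's methods, control libraries were made from mice of a preliminary experiment. Exposure and experiment therefore cannot be told apart in any comparison with control, and the comparisons of IH and of SH with control share the same 4 libraries. The study kept a gene in the table only if its signal differed from control, and every percentage of called genes and every adjusted p-value below applies to the genes so selected.

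Most Zfp proteins carry zinc fingers of the C2H2 type. In these a pair of cysteines and a pair of histidines hold a zinc ion, and residues between them can read a few DNA bases. Many Zfp proteins also carry a KRAB domain, which recruits TRIM28 and through it the histone methyltransferase SETDB1. Such proteins are known for silencing retrotransposons and for keeping imprinted regions methylated. KRAB genes are clustered in the mouse genome and arose largely by duplication. Zfp genes without a KRAB domain are a mixed group. They encode DNA-binding regulators with SCAN or no accessory domains, CCCH proteins that bind AU-rich mRNA, or proteins of the nucleolus and centrosome.

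A search of the translated coding sequences for the KRAB A box found the pattern in 125 members and not in 80, and 2 members (Zfp781 and Zfp125) had no coding sequence to search. KRAB members held a median of 12 C2H2 fingers and 7 copies of the TGEKP linker that joins fingers, whereas the other members held a median of 6.5 fingers and 0 linkers, and 9 of them had no C2H2 finger. By position, 45 members lay on chromosome 7, 32 on chromosome 17, of which 28 were KRAB members, and 19 on chromosome 13, of which 18 were KRAB members. A stretch of at least 150 bases at 98% identity or more to another gene was found for 20 members. Among them Zfp97 and Zfp960, neighbours on chromosome 17, matched each other over 2684 nt, so that their counts may be split between them.

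The coding stretch of a C2H2 finger with the 5 codons after it is shown for the members with the smallest p in each direction of the comparisons with control, with their base composition. They were read from GRCm39 at chr4:147911121-147911198, minus strand, for Zfp933, at chr4:136017531-136017608, plus strand, for Zfp46, at chr9:72229808-72229888, plus strand, for Zfp280d, and at chr7:5056095-5056172, plus strand, for Zfp580. Each is exonic coding sequence, written 5′ to 3′, and capitals mark the codons of the 2 cysteines and 2 histidines.
Zfp933: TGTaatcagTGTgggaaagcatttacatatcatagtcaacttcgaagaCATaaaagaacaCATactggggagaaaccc
Zfp46: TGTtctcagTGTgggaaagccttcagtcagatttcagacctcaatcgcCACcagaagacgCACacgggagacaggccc
Zfp280d: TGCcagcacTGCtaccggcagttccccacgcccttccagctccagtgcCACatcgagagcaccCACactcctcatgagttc
Zfp580: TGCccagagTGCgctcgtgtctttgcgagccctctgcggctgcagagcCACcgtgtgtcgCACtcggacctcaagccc
The stretch is the first finger of Zfp933, Zfp46 and Zfp580 and the second pattern match of Zfp280d, whose first match spans 2 exons. GC content was 38.5% in the stretch and 38.0% in the whole coding sequence of Zfp933, 55.1% and 59.4% for Zfp46, 61.7% and 40.9% for Zfp280d, and 66.7% and 66.2% for Zfp580, so that the Zfp280d stretch is far richer in GC than its gene. Zfp933 and Zfp46 are KRAB genes, and the other 2 are not.

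The total count per library was 8352355 to 11777101 in control, 7568082 to 10578076 in IH and 7203659 to 10480839 in SH. Of the 12 hippocampal neuron markers examined, 10 were in the table, and their summed normalized counts were 17783 to 20658 in control, 15760 to 23545 in IH and 16521 to 24785 in SH. Of these markers Prox1, of dentate granule cells, was called higher in IH (log2 0.66 ± 0.16 SE, adjusted p = 0.017, edgeR) and in SH (log2 0.81 ± 0.16, adjusted p = 0.0039), and no other was called. Summed choroid plexus markers (11 of 12 in the table, none of them called in any comparison) spread from 1023 to 88006 in control, from 2028 to 50128 in IH and from 1389 to 57868 in SH. All 4 erythrocyte markers tested were called lower in IH than in control, beside 4.85% of all genes. Erythrocyte sums were 1649 to 2304 in IH against 2926 to 3189 in control. In SH compared with control, 2 of 3 microglia markers tested, of 6 listed, were called lower, beside 10.5% of all genes. Microglia sums were 2442 to 3132 in SH against 3204 to 3453 in control. Of 6 endothelial markers 2 were called higher, beside 10.2% of all genes, with sums of 5255 to 5592 against 4330 to 5072. None of the 7 oligodendrocyte markers tested was called, with median log2 fold changes of 0.36 in IH (6 of 7 above 0) and 0.38 in SH (7 of 7) against control, and sums of 72095 to 106910 in control, 82543 to 187970 in IH and 82033 to 142190 in SH. The 1 astrocyte marker tested, Gfap, was not called. With the choroid plexus level as a covariate, 10 members were higher and 1 lower in IH against control, beside 410 and 298 of 7338 genes. The median log2 fold change over members was 0.10. In SH against control 11 members were higher and 14 lower, beside 715 and 692 of 7338 genes, with a median of 0.04. The part of the other cell types in the values of Zfp genes was not tested, and in bulk tissue fewer cells of a type and less RNA per cell cannot be told apart.

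Genes were tested if their mean count was at least 40 in every group, which kept 204 of the 207 members and 7338 genes in all. Zfp708, Zfp991 and Zfp607a were not tested. Zfp708, a KRAB protein that binds a retrotransposon family, had a mean raw count of 18.2 in control, 83.6 in IH and 51.8 in SH. Levels between genes were compared as normalized count per kilobase of transcript. On that scale members ranged from 12.3 to 1966 with a median of 71.9, and the median was 51.2 for KRAB members and 127 for the others. The highest mean normalized counts were those of Zfp365, Zfp445 and Zfp871. Zfp365, which encodes a centrosomal protein that binds DISC1 in the brain, also had the highest level per kilobase, 1966, with a mean normalized count of 8656 ± 241 in control (SD, n = 4), 8172 ± 502 in IH (SD, n = 5) and 8838 ± 425 in SH (SD, n = 5). Zfp445, a KRAB protein that protects imprints, had 5328 ± 200 in control (SD, n = 4), 5791 ± 380 in IH (SD, n = 5) and 5838 ± 434 in SH (SD, n = 5).

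As a set, Zfp genes had a median slightly above that of all genes in IH, with KRAB members above it and the other members below it. The median log2 fold change of IH against control was 0.10 over the 204 members, compared with -0.02 over all 7338 genes, and 117 members were above 0. It was 0.17 for the 122 KRAB members tested, of which 86 were above 0, and -0.07 for the 80 other members, of which 29 were above 0. Without the first control library the median was 0.05 for all members and 0.12 for KRAB members. In SH against control the medians were 0.04 for all members, 0.10 for KRAB members and -0.06 for the others, compared with 0.00 over all genes. Without the first control library they were 0.00 for all members and 0.04 for KRAB members. Between IH and SH the medians were 0.05 for all members, 0.10 for KRAB members and 0.01 for the others, compared with 0.00 over all genes, and 80 of the 122 KRAB members were above 0. Without the first SH library the KRAB median was 0.06.

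**Figure D1:**
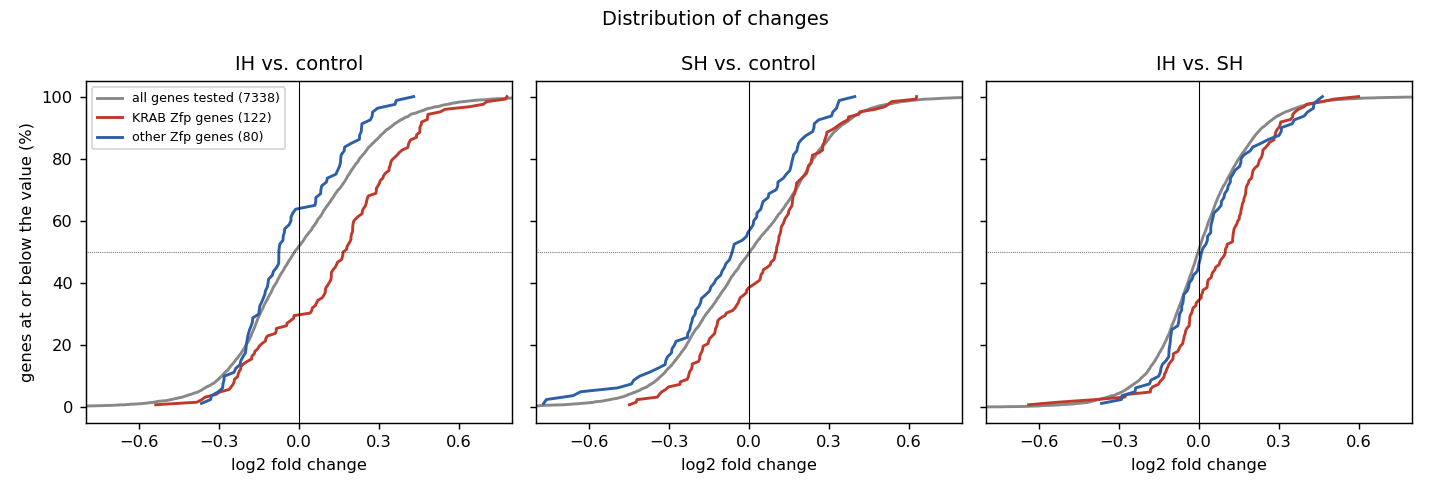
Cumulative share of genes (%) at or below each log2 fold change, in 3 panels for IH vs. control, SH vs. control and IH vs. SH. The line of the 122 KRAB Zfp genes runs to the right of the line of all 7338 genes in its middle part in each panel, and the line of the 80 other Zfp genes runs to the left of it in the comparisons with control.

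When each member was set against genes outside the family with a similar mean raw count, the median difference in log2 fold change was 0.10 for IH against control, 0.04 for SH against control and 0.07 for IH against SH. The contrast between the kinds of member was present across most of the count range. In IH against control, KRAB members had medians of 0.20 below a mean count of 100 (34 genes), 0.17 from 100 to 200 (26 genes), 0.19 from 200 to 500 (44 genes), 0.10 from 500 to 1000 (11 genes) and 0.25 above 1000 (7 genes). The other members had medians of -0.14 from 100 to 200 (14 genes), -0.07 from 200 to 500 (22 genes), -0.05 from 500 to 1000 (30 genes) and 0.16 above 1000 (11 genes). Genes outside the family had medians between -0.04 and 0.03 in these classes. In SH against control the KRAB members had a median of -0.03 from 100 to 200 and of -0.09 from 500 to 1000, so that their shift was not present in every class.

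**Figure D2:**
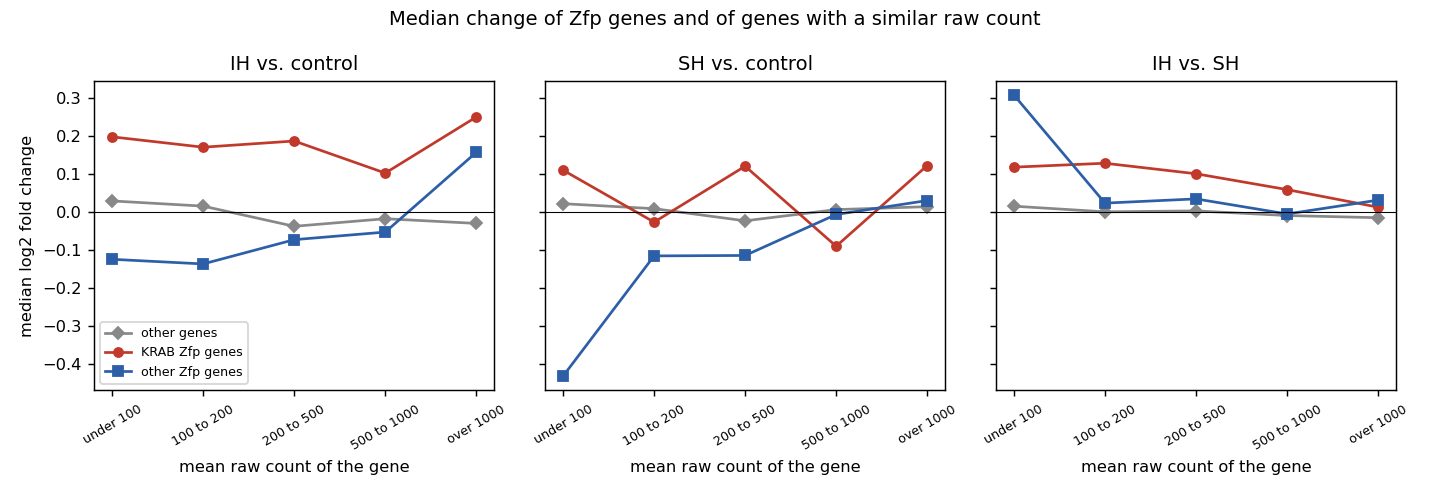
Median log2 fold change by class of mean raw count for KRAB Zfp genes, other Zfp genes and genes outside the family, with a panel for each comparison. KRAB Zfp genes lie above the genes outside the family in all 5 classes for IH vs. control and for IH vs. SH, and the class of other Zfp genes under 100 holds 3 genes.

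In IH against control 13 members were higher and 1 was lower at an adjusted p under 0.05 (edgeR quasi-likelihood test, Benjamini-Hochberg over all genes tested). The 13 are 6.37% of the 204 members, near the 6.08% of all genes called higher, and the 1 is 0.49% compared with 4.85% of all genes called lower. At the limits of the study, a log2 fold change beyond 0.58 with an unadjusted p under 0.05, 5 members were higher (Zfp933, Zfp97, Zfp760, Zfp965 and Zfp960) beside 1.55% of all genes, and 0 were lower beside 1.13% of all genes. The 13 higher members were 9 of the 122 KRAB members tested and 4 of the 80 others, beside the 6.08% of all genes. Without the first control library 5 members were higher (2.45%) beside 2.84% of all genes, and 2 were lower beside 2.73% of all genes. The transcripts of the 13 had GC contents from 37.6% to 45.8%, and that of the lower member, Zfp46, was 51.7%.

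Zfp933 had the smallest p. This KRAB gene on chromosome 4 (GRCm39, 147907443 to 147932882, minus strand, ENSMUSG00000059423.15) codes for 12 C2H2 fingers in 468 residues. Its normalized counts were 291, 329, 377 and 378 in the control libraries, 590, 583, 666, 522 and 582 in IH, and 389, 515, 400, 456 and 465 in SH. Every IH library was above every SH library, and every SH library was above every control library. The fold was 1.71 for IH against control (log2 0.78 ± 0.11 SE, adjusted p = 6.4e-04, edgeR), 1.29 for SH against control (log2 0.37 ± 0.11, adjusted p = 0.024) and 1.32 for IH against SH (log2 0.40 ± 0.10, adjusted p = 0.044).

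Zfp760 and Zfp626 are KRAB genes on chromosomes 17 and 7. Zfp760 had normalized counts of 201, 226, 263 and 215 in control, of 395, 418, 365, 343 and 328 in IH, and of 328, 313, 255, 267 and 283 in SH. The IH libraries were above all control libraries, and the SH libraries overlapped the highest control library. The log2 fold change was 0.70 ± 0.11 SE for IH against control (adjusted p = 0.0017, edgeR) and 0.35 ± 0.11 for SH against control (adjusted p = 0.036). Zfp626 had 216, 238, 260 and 218 in control, 322, 332, 308, 351 and 390 in IH, and 257, 286, 244, 254 and 295 in SH. It was higher in IH than in control (log2 0.55 ± 0.10 SE, adjusted p = 0.0043, edgeR). For SH against control its log2 fold change was 0.20 ± 0.10 (adjusted p = 0.17), with overlapping libraries, and for IH against SH 0.35 ± 0.09 (adjusted p = 0.067), with no overlap.

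Among members without a KRAB pattern, Zfp280d, Zfp397, Zfp24 and Zfp148 were higher in IH than in control. Zfp280d had normalized counts of 956, 951, 938 and 763 in control, of 1135, 1257, 1231, 1290 and 1174 in IH, and of 984, 1163, 1135, 1271 and 1157 in SH. All libraries of both hypoxia groups lay above all control libraries, with log2 fold changes of 0.43 ± 0.08 SE in IH (adjusted p = 0.0060, edgeR) and 0.34 ± 0.08 in SH (adjusted p = 0.012). With the trends of each library with GC content and transcript length removed, they were 0.22 (adjusted p = 0.14) and 0.12 (adjusted p = 0.42). Zfp397, a SCAN-domain protein, had 915, 960, 1062 and 1003 in control, 1455, 1189, 1264, 1123 and 1319 in IH, and 875, 1074, 944, 1016 and 1079 in SH. Its IH libraries were above all others, while SH and control overlapped. The log2 fold change was 0.37 ± 0.09 SE for IH against control (adjusted p = 0.014, edgeR), 0.02 ± 0.09 for SH against control (adjusted p = 0.90) and 0.35 ± 0.08 for IH against SH (adjusted p = 0.034). Zfp24, a SCAN-domain protein known for its need in myelination by oligodendrocytes, rose by 0.28 ± 0.07 in IH (adjusted p = 0.027). Zfp148, which binds GC-rich promoter elements, rose by 0.24 ± 0.07 in IH (adjusted p = 0.048), a call that held in 9 of 27 alternative fits.

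The remaining members called higher in IH were KRAB genes. Zfp772 rose by 0.46 ± 0.11 on the log2 scale (adjusted p = 0.016, edgeR), with counts of 223 to 311 in control and 323 to 416 in IH. Zfp960 had normalized counts of 49.3 to 67.4 in control, 69.9 to 103 in IH and 76.6 to 97.5 in SH, with log2 fold changes of 0.64 ± 0.17 SE in IH (adjusted p = 0.025) and 0.63 ± 0.17 in SH (adjusted p = 0.018). Its near-copy Zfp97 had the largest log2 fold change of any member, 0.78 ± 0.22 in IH (adjusted p = 0.034), with 40.6 to 71.3 in control and 74.5 to 117 in IH. The call in IH held in 17 of 27 alternative fits for Zfp960 and in 16 of 26 for Zfp97. Zfp983, Zfp612 and Zfp867 were also called, with log2 fold changes of 0.41, 0.29 and 0.46. Zfp965, which shares at least 150 bases with 7 other genes, had 0.69 ± 0.25 and did not pass (adjusted p = 0.080).

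Zfp46 was the only member lower in IH than in control. This KRAB gene with 12 fingers on chromosome 4 had normalized counts of 1309, 1146, 1375 and 1318 in control, of 803, 979, 997, 1100 and 1060 in IH, and of 1015, 1033, 976, 1162 and 1035 in SH. All IH libraries were below all control libraries, and in SH 1 library was above the lowest control library. The log2 fold change was -0.38 ± 0.09 SE in IH (adjusted p = 0.013, edgeR) and -0.30 ± 0.09 in SH (adjusted p = 0.025). At the lower end Zfp959 had a log2 fold change of -0.54 ± 0.46 in IH against control, which did not pass (adjusted p = 0.44), with IH libraries spread from 13.1 to 138 and a log2 fold change of -0.94 to -0.28 with 1 library left out.

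In SH against control 9 members were higher and 14 were lower at an adjusted p under 0.05. The 9 are 4.41% of the members beside 10.2% of all genes, and the 14 are 6.86% beside 10.5% of all genes. At the limits of the study 2 members were higher (Zfp960 and Zfp119b) beside 1.21% of all genes, and 4 were lower (Zfp580, Zfp524, Zfp853 and Zfp575) beside 1.5% of all genes. Without the first control library 2 members were higher beside 5.41% of all genes and 6 lower beside 6.94%. Without the first SH library 16 of 202 were higher and 18 lower, beside 11.9% of all genes in each direction. With scaling by the 80th percentile of counts 6 members were higher beside 8.42% of all genes and 15 lower beside 12%. The 14 lower members were 10 of the 80 tested without a KRAB pattern and 4 of the 122 KRAB members tested, beside the 10.5% of all genes. Transcripts of these 14 had GC contents from 47.3% to 66.1%. The 9 higher members had GC contents from 36.9% to 56.7%, with a median of 39.7%.

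Zfp580 had the smallest p among the lower members. This gene on chromosome 7 (GRCm39, 5054537 to 5056722, plus strand, ENSMUSG00000055633.8) codes for 3 C2H2 fingers in 230 residues. Its normalized counts were 511, 369, 398 and 378 in control, 271, 337, 291, 338 and 408 in IH, and 248, 228, 259, 246 and 241 in SH. The SH libraries formed a narrow band below all others, and IH and control overlapped. The fold was 0.59 for SH against control (log2 -0.76 ± 0.12 SE, adjusted p = 0.0012, edgeR), and the log2 fold change was -0.33 ± 0.12 for IH against control (adjusted p = 0.088). With the trends of each library with GC content and transcript length removed, the log2 fold change in SH was -0.30 and did not pass (adjusted p = 0.19).

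Zfp219, a partner of SOX9 in cartilage, and Zfp358 were lower in SH than in both other groups. Zfp219 had normalized counts of 889, 935, 934 and 897 in control, of 866, 783, 816, 889 and 982 in IH, and of 738, 630, 667, 722 and 766 in SH. Its SH libraries were below all others, while IH and control overlapped. The log2 fold change was -0.37 ± 0.08 SE for SH against control (adjusted p = 0.0047, edgeR) and -0.07 ± 0.08 for IH against control (adjusted p = 0.53). Zfp358 had 543, 479, 470 and 595 in control, 482, 520, 550, 450 and 435 in IH, and 414, 363, 332, 332 and 410 in SH. Its SH libraries were below all others as well, with a log2 fold change of -0.49 ± 0.10 against control (adjusted p = 0.0054, edgeR). With GC and length trends removed, neither passed in SH against control, where Zfp219 had -0.10 (adjusted p = 0.49) and Zfp358 had -0.26 (adjusted p = 0.13), or in IH against SH (adjusted p = 0.15 and 0.081).

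Further members lower in SH were Zfp524, Zfp316, Zfp444, Zfp385a and Zfp853. Zfp524 fell by 0.77 ± 0.18 SE on the log2 scale (adjusted p = 0.0077, edgeR), from 104 to 134 normalized counts in control to between 51.0 and 95.0 in SH. Zfp316, a KRAB gene, fell by 0.42 ± 0.10 (adjusted p = 0.0095). Zfp444, which carries a SCAN domain, fell by 0.31 ± 0.08 (adjusted p = 0.017). Zfp385a, an RNA-binding protein and partner of p53, fell by 0.31 ± 0.08 (adjusted p = 0.019), but had 0.01 (adjusted p = 0.96) once the trends of each library with GC content and transcript length were removed. Zfp853, the neighbour of Zfp316 on chromosome 5, fell by 0.66 ± 0.19 (adjusted p = 0.022). Zfp382, Zfp46, Zfp36l2, Zfp90, Zfp575 and Zfp593 completed the 14, with log2 fold changes from -0.63 to -0.30, and Zfp575 shares a stretch of its transcript with 7 other genes.

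Zfp871, Zfp654, Zfp280c and Zfp536 were higher in SH, beside the members already named. Zfp871, a KRAB gene and the third most abundant member by count, had normalized counts of 3067, 3774, 3973 and 3591 in control, of 4525, 4164, 3772, 4358 and 4587 in IH, and of 4058, 4669, 4250, 4744 and 4631 in SH. All SH libraries were above all control libraries, with a log2 fold change of 0.31 ± 0.08 SE (adjusted p = 0.014, edgeR). In IH it was 0.25 ± 0.08, and the libraries overlapped (adjusted p = 0.054). Zfp654 rose by 0.33 ± 0.09 and Zfp280c by 0.31 ± 0.10 in SH (adjusted p = 0.023 and 0.038). Zfp536, which represses neuronal differentiation, rose by 0.33 ± 0.11 in SH (adjusted p = 0.042), with counts of 598 to 666 in control and 758 to 848 in SH, and 1 IH library at 1008 stood above the other IH libraries, which were at 657 to 758. The call in SH held in 13 of 27 alternative fits for Zfp536, in 14 for Zfp280c, in 15 for Zfp760 and in 20 for Zfp654. Zfp763 was also called higher, by 0.28. The largest log2 fold changes in SH were 0.63 for Zfp960 and 0.63 ± 0.25 for Zfp119b, and the latter did not pass (adjusted p = 0.089).

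**Figure D3:**
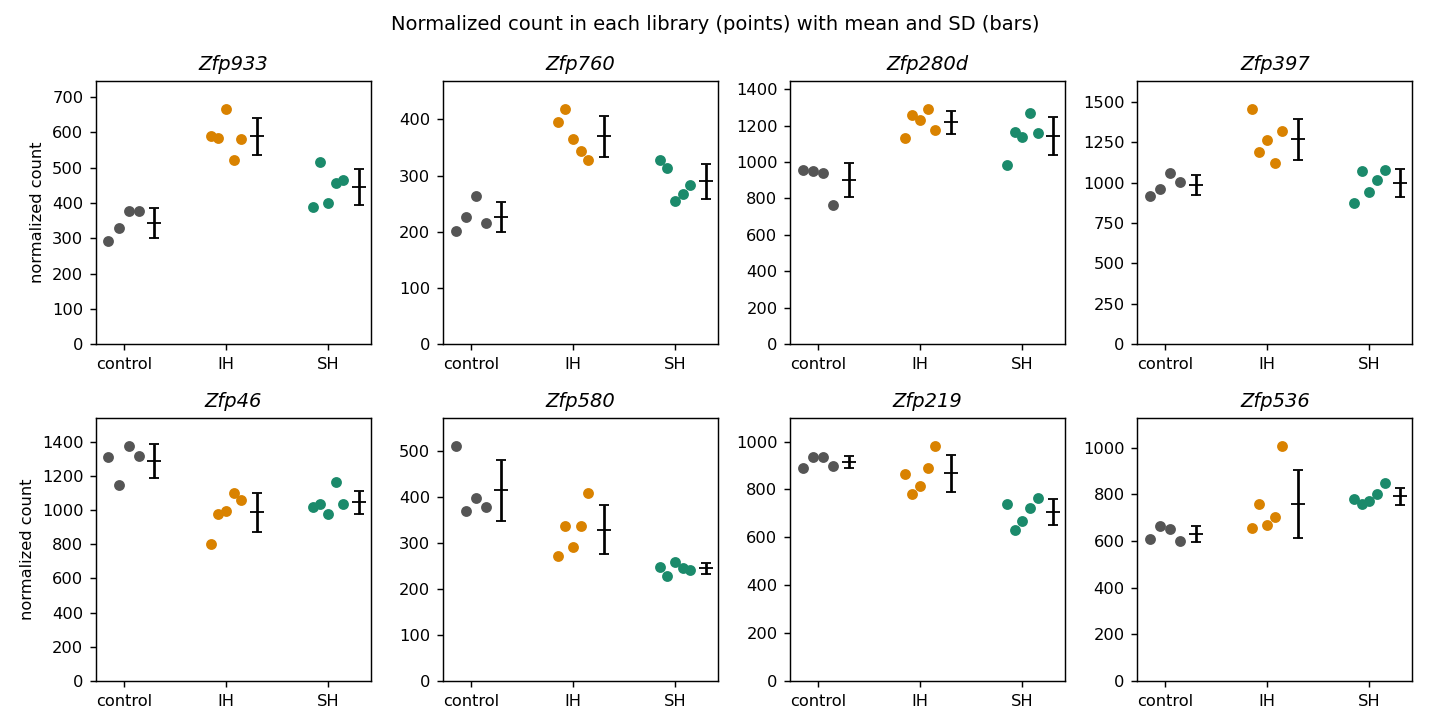
Normalized count in each library for 8 members by group (control 4, IH 5 and SH 5 libraries), points for libraries, with a bar for the mean and SD beside them and the axis starting at 0. The IH points of Zfp933 and Zfp397 lie above all SH points, and the SH points of Zfp580 and Zfp219 lie below all control and IH points.

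Between IH and SH 4 members were higher in IH and 0 were lower at an adjusted p under 0.05 (edgeR), or 1.96% of the members beside 1.47% of all genes called higher and 0.899% called lower. At an unadjusted p under 0.05, 23 members (11.3%) were higher in IH beside 8.6% of all genes and 2 were lower beside 7.15%. DESeq2 called 7 members higher beside 2.52% of all genes and 0 lower beside 1.57%. With any 1 of the 14 libraries left out, controls included, edgeR called 0 to 2 members higher, beside 46 to 114 of all genes. At the limits of the study 1 member was higher (Zfp472) beside 0.572% of all genes, and 0 were lower beside 0.409% of all genes. The 4 called members were Zfp397 and Zfp933, described above, with Zfp219 (log2 0.30 ± 0.07 SE, adjusted p = 0.040) and Zfp358 (log2 0.39 ± 0.10, adjusted p = 0.047). Of 27 alternative fits the call held in 16 for Zfp397, in 10 for Zfp219, in 9 for Zfp933 and in 7 for Zfp358. Zfp397 and Zfp933 had their IH libraries above control, while Zfp219 and Zfp358 had their SH libraries below control. Zfp472 had the largest log2 fold change, 0.60 ± 0.26 (adjusted p = 0.27), with 84.6 to 160 normalized counts in IH and 41.3 to 126 in SH. Zfp52 followed with 0.51 ± 0.21 (adjusted p = 0.23). At the lower end Zfp959 had -0.64 ± 0.43 (adjusted p = 0.54) and Zfp229 had -0.53 ± 0.36 (adjusted p = 0.54). With 1 library left out, Zfp959 ranged from -1.04 to -0.38, and Zfp229 had -0.24 without the fifth IH library.

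The members were also grouped by role. The 3 genes of the Zfp36 family, CCCH proteins that promote decay of AU-rich mRNA, had negative values in both comparisons with control. Zfp36 had log2 fold changes of -0.12 ± 0.18 SE in IH (adjusted p = 0.66, edgeR) and -0.43 ± 0.18 in SH (adjusted p = 0.098), and Zfp36l2 was the 1 that passed, beside 10.5% of all genes lower in SH, with -0.34 ± 0.10 in SH (adjusted p = 0.027). Of 8 listed members known for imprints or retrotransposon silencing, 6 were in the table and 5 were tested, and none passed in any comparison. Zfp57, which maintains imprinted methylation, had normalized counts of 211 to 271 in control, 196 to 411 in IH and 155 to 340 in SH, with log2 fold changes of 0.22 ± 0.23 in IH (adjusted p = 0.52) and 0.10 ± 0.23 in SH (adjusted p = 0.79). Of 9 neuronal and developmental members tested, Zfp536 rose and Zfp219 fell in SH, beside 10.2% of all genes higher and 10.5% lower, and none passed in IH, and Zfp365 had -0.08 ± 0.06 in IH (adjusted p = 0.33) and 0.03 ± 0.06 in SH (adjusted p = 0.74).

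Of 5 members of general transcription and chromatin tested, Zfp148 rose in IH, beside 6.08% of all genes, and none passed in SH, where Zfp148 had 0.18 ± 0.07 (adjusted p = 0.086, edgeR). Of 6 members with roles in RNA, translation, ubiquitin or the spindle, Zfp385a and Zfp593, a factor of ribosome assembly, fell in SH, beside 10.5% of all genes, and none passed in IH. Zfp593 fell by 0.41 ± 0.14 on the log2 scale (adjusted p = 0.046), a call that held in 9 of 27 alternative fits. Zfp330, which encodes a nucleolar protein and is the first of that group, had 0.06 ± 0.09 in IH (adjusted p = 0.66) and 0.24 ± 0.09 in SH (adjusted p = 0.070). Of 32 listed partners of KRAB proteins 6 were in the table, and 2 of them were higher in IH, beside the 6.08% of all genes, and 3 in SH, beside the 10.2% of all genes. Tasor, a subunit of the HUSH silencing complex, had log2 fold changes of 0.54 ± 0.09 SE in IH (adjusted p = 0.0030) and 0.32 ± 0.09 in SH (adjusted p = 0.025). Smarcad1, a chromatin remodeller, had 0.24 ± 0.07 in IH (adjusted p = 0.041, edgeR) and 0.22 ± 0.07 in SH (adjusted p = 0.041). Atf7ip, a partner of SETDB1, had 0.25 ± 0.06 in SH (adjusted p = 0.0081). Not called were Chd3 (-0.21 in IH and -0.15 in SH), Mbd3 (-0.15 and -0.03) and Sumo2 (0.03 and 0.37). Transcript GC content was 39.2% for Tasor and 41.2% for Smarcad1. In their GC classes 20.2% and 13.4% of genes outside the family were called higher in IH, and 32.9% and 24.2% in SH. Trim28 and Setdb1 were not analysed here. Other zinc finger families had medians near or below 0 in IH against control, -0.01 for 24 Zbtb genes, -0.11 for 7 Zkscan genes and -0.13 for 5 Zscan genes, with 2, 0 and 0 genes called higher, beside 6.08% of all genes, and none lower, beside 4.85%. In SH against control their medians were 0.05, -0.14 and -0.11, with 4, 0 and 0 called higher, beside 10.2% of all genes, and 1, 1 and 0 called lower, beside 10.5%.

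KRAB and other members differ in base composition, and the changes against control ran with it. The median GC content of the transcript was 40.8% for KRAB members, 50.8% for the others and 51.0% for all genes tested. Across the 203 members with a transcript, Pearson's r between GC content and log2 fold change was -0.61 for IH against control, -0.62 for SH against control and 0.00 for IH against SH, which describes genes measured in the same libraries. Across 7307 genes it was -0.42, -0.51 and 0.15. Below a GC content of 40%, 51 of 59 members and 312 of 356 genes outside the family were above 0 in IH against control, with medians of 0.23 and 0.21. From 40% to 45%, 46 of 52 members and 966 of 1240 genes outside the family were above 0, with medians of 0.20 and 0.16. From 45% to 50%, 15 of 37 members and 925 of 1571 genes outside the family were above 0, with medians of -0.08 and 0.06, and from 50% to 55%, 1 of 25 and 702 of 1780 were, with medians of -0.15 and -0.06. From 45% to 55% the medians of members were below those of genes outside the family, a difference that was not tested. Above 55%, 3 of 30 members and 512 of 2157 genes outside the family were above 0, with medians of -0.15 and -0.14. In SH the medians below 40% were 0.11 for members and 0.24 for genes outside the family, and above 55% they were -0.25 and -0.19. In IH against SH the members below 40% had a median of 0.10 (44 of 59 above 0), while genes outside the family of that GC content had -0.03 (146 of 356 above 0). In the next classes members and genes outside the family had 0.06 and -0.03 from 40% to 45%, -0.06 and -0.03 from 45% to 50%, -0.04 and -0.02 from 50% to 55%, and 0.12 and 0.05 above 55%.

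**Figure D4:**
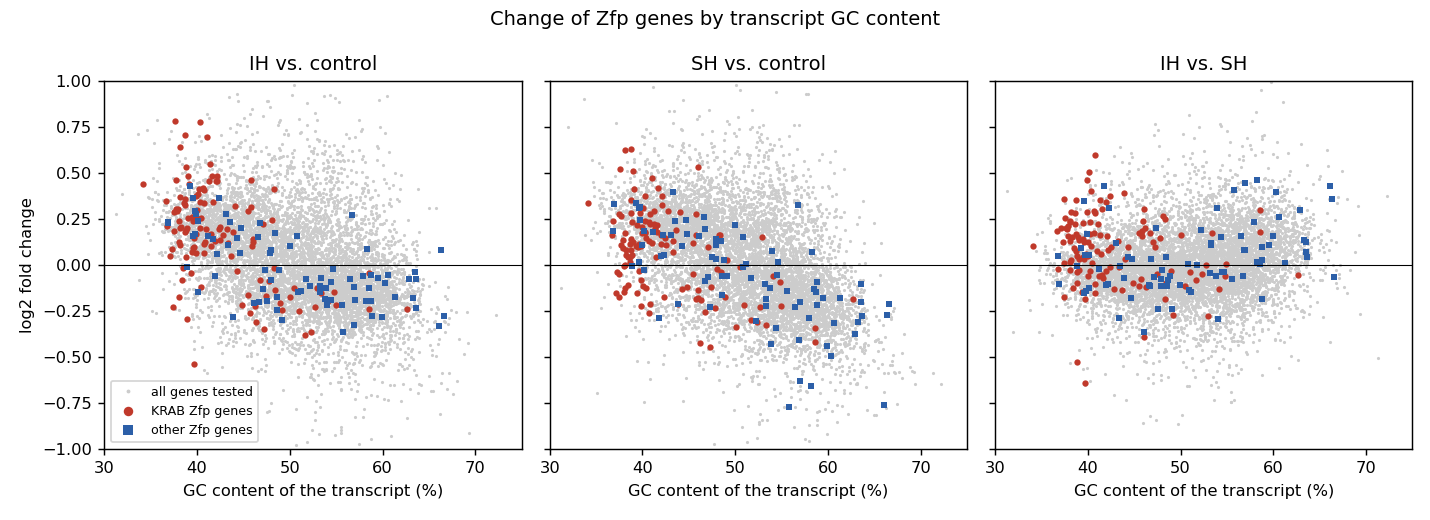
Log2 fold change against the GC content of the transcript (%) for KRAB Zfp genes, other Zfp genes and all genes tested, with a panel for each comparison and the vertical axis cropped at 1 in both directions. In the comparisons with control the members fall from left to right with r of -0.61 and -0.62, and in IH vs. SH they do not (r of 0.00).

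By library, the median level of KRAB members, relative to each gene's mean over control, was -0.15, 0.03, 0.14 and -0.04 on the log2 scale in the control libraries, 0.20, 0.15, 0.09, 0.10 and 0.22 in IH, and -0.05, 0.21, 0.05, 0.17 and 0.14 in SH. The groups overlapped: the third control library lay within the range of both hypoxia groups, control libraries 2 and 4 lay within the range of SH, and IH libraries 3 and 4 with SH libraries 1 and 3 lay within the range of control. When the trends of each library with GC content and transcript length were removed, these medians were -0.06 to 0.05 in control, -0.03 to 0.04 in IH and -0.15 to -0.01 in SH. The median log2 fold change of the members then was -0.01 for IH against control, -0.06 for SH against control and 0.05 for IH against SH, and that of KRAB members was 0.00 in IH and -0.07 in SH against control. With the trends removed, 3 members were higher and 4 lower in IH against control, beside 2.45% and 2.77% of all genes. In SH against control 2 were higher and 6 lower, beside 2.94% and 3% of all genes, and in IH against SH 3 were higher and 0 lower, beside 1.14% and 1.27%. Members called the same way with and without the trends were Zfp933, Zfp760, Zfp626 and Zfp46 for IH against control, Zfp46, Zfp382, Zfp444, Zfp524 and Zfp536 for SH against control, and Zfp397 and Zfp933 for IH against SH. The other calls against control were lost. In IH against control Zfp397 then had 0.19 (adjusted p = 0.14, edgeR), Zfp24 0.13 (adjusted p = 0.29) and Zfp148 0.07 (adjusted p = 0.63), among others. In SH against control Zfp933 had 0.17 (adjusted p = 0.27), Zfp760 0.14 (adjusted p = 0.43) and Zfp871 0.13 (adjusted p = 0.11). There Zfp280c had 0.11 (adjusted p = 0.56) and Zfp654 0.10 (adjusted p = 0.54). The part of library preparation in these trends was not tested.

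**Figure D5:**
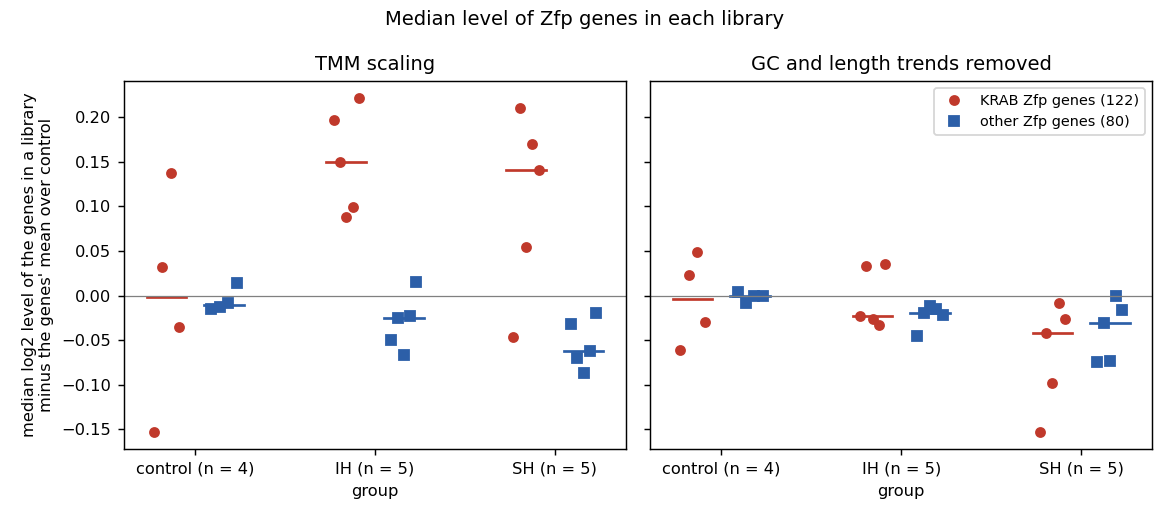
Median log2 level of the 122 KRAB and the 80 other Zfp genes in each library relative to their mean over control, with TMM scaling on the left and with GC and length trends removed on the right. Points are libraries and short lines are group medians, and the KRAB points of IH, at 0.09 to 0.22 on the left, lie at -0.03 to 0.04 on the right.

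RefSeq promoters (GRCm38.p6, 250 bases before to 50 after the start) were found for 173 of the 207 members. The core of the hypoxia response element, ACGTG or GCGTG on either strand, was present in 91 of the 173 (52.6%), in 53 of 109 KRAB promoters (48.6%) and in 38 of 63 others (60.3%), compared with 60.4% of the promoters of genes tested and 43.8% of all 27025 promoters. It was in 5 of 9 promoters of members higher in IH, in 0 of 1 lower in IH, in 5 of 7 higher in SH and in 6 of 9 lower in SH. ACGTG is also contained in the E-box CACGTG. The promoters of the member with the smallest p in IH and in SH are shown, with matches in capitals, for chr4:147848369-147848668, minus strand, and chr7:5051282-5051581, plus strand.
Zfp933: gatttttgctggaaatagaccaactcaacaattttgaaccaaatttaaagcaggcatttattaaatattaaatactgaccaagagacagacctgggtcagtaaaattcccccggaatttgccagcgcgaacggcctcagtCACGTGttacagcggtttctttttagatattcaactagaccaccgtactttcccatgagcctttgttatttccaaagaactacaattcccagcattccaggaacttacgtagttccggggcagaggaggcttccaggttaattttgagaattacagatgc
Zfp580: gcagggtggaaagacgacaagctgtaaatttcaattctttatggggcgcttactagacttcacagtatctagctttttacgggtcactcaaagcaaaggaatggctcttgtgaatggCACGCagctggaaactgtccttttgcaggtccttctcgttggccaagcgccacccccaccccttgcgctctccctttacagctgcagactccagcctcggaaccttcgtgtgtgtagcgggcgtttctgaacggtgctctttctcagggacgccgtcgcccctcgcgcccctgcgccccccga
Zfp933 had 2 overlapping matches, the 2 strands of the palindrome CACGTG, in a promoter of 41.7% GC, and Zfp580 had 1 match in a promoter of 56.3% GC. A match of these letters is a description of the window and not of a bound site.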

How the data were processed

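RNA-seq of hippocampus from 4 control, 5 IH and 5 SH mice was analysed. The authors trimmed reads with fastp 0.23.4, aligned them to GRCm39 with HISAT2 2.2.1 and deposited estimated counts per gene from StringTie 2.2.1, without normalization between samples. The annotation release is not given in the sources used here. According to the methods the authors kept protein-coding genes above a count of 40 with a signal that differed from control. For 10 genes some counts had decimals, and these were rounded. Libraries of a group were labelled as separate replicates, so p-values measure the spread between these samples.

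Differences were tested by quasi-likelihood in edgeR (4.0.16, under R 4.3.3) with TMM scaling, two-sided, in a single fit of the 3 groups. Genes entered if no group had a mean count under 40, with Benjamini-Hochberg adjustment and a threshold of 0.05. It was tested on simulated data. Standard errors were derived from each log2 fold change and its F statistic. Counts were normalized by the relative TMM library size. Transcripts are the canonical ones of GENCODE vM39 (GRCm39), with 7707 symbols matched directly, 16 through synonyms and 33 not matched. Trends were removed as loess offsets with a span of 0.4. Near-copies were searched with BLAST. Promoters came from RefSeq, GRCm38.p6. Members and lists were chosen with earlier results of these data known.

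Named members were, per comparison, the 8 higher and 8 lower with the smallest p among those called, the 2 largest and 2 smallest log2 fold changes, the 3 highest counts, and the first and the called members of each role group. Others are named where a count holds them. Alternatives were DESeq2 1.42.0, limma 3.58.1 on the study's processing, other scalings, filters and fits, a choroid plexus covariate, a replicate block, trend removal and each library left out, and the GC and length trends alone and the medians of KRAB and other members were added after the data were seen. No libraries were duplicates, with a chi-square per degree of freedom of at least 8.75 over 26 pairs. Protein sequences were not printed here.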

Additional observations from a re-analysis of the deposited data

Results flagged for a closer look

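A library far from the rest of its group (Dixon's 95% limit) was found in 7 of 114 groups looked at, where chance gives about 1 in 20. Among the control libraries, Zfp280d stood at 762.78 normalized counts in the fourth beside a median of 944.74, Zfp385a at 1275.8 in the first beside 997.88, Zfp36l2 at 865.4 in the first beside 743.89, and Zfp593 at 233.87 in the first beside 195.06. In IH the fifth library held 1008.1 for Zfp536 beside a median of 704.87 and 8.5146 for Zfp229 beside 66.717. In SH the second library held 96.299 for Zfp229 beside a median of 82.115.

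In the test of IH against SH 4 members were called higher (edgeR, adjusted p under 0.05), or 1.96% of members beside 1.47% of all genes. The log2 fold change was 0.40285 for Zfp933, 0.39401 for Zfp358, 0.34843 for Zfp397 and 0.29932 for Zfp219. Their calls held in 9, 7, 16 and 10 of 27 alternative fits. With any 1 library left out 0 to 2 members were called, and in a fit of only the 2 groups 0 were.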

How the results depend on the processing

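For IH against control, members called higher were 20 of 204 with DESeq2, beside 624 of 7338 genes, and 8 with length trends removed, beside 271. They were 3 with GC or with both trends removed, beside 186 and 180, and 2 with the replicate block and both trends, beside 137. Members called lower were 3 with the replicate block, with GC trends or with length trends removed, beside 331, 173 and 377 of all genes. They were 4 with both trends removed, beside 203, and 5 with the replicate block and both trends, beside 172. With both trends, the block and both trends, or GC trends removed, in that order, the median log2 fold change was -0.0087, -0.0262 and -0.0088 for all members, 0.0017, -0.0042 and 0.0044 for KRAB members, and -0.0267, -0.0320 and -0.0247 for other members, which had -0.0996 with length trends removed. For SH against control, members called higher were 2, 1 and 2 in that order, beside 216, 180 and 177 of all genes. They were 3 with length trends removed, beside 470. Members called lower were 6, 6 and 5 in the same order, beside 220, 210 and 216. The medians were -0.0556, -0.0629 and -0.0509 for all members and -0.0675, -0.0715 and -0.0700 for KRAB members. For other members they were -0.0384 with the block and both trends, -0.0297 with GC trends removed and -0.0389 with library total scaling. For IH against SH, members called higher were 7 with DESeq2, beside 185 of all genes, and 1 with the replicate block, beside 87. They were 2 with filterByExpr, with the choroid plexus covariate and with length trends removed, beside 97, 96 and 102. With limma on the study's processing and in a fit of only the 2 groups 0 were called, beside 72 and 35. The median of other members was -0.0019 with GC trends removed. Beyond what the removed trends themselves change, the cause was not tested.

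With each library left out in turn, members called higher were 5 to 18 and lower 1 to 3 for IH against control. They were 2 to 16 and 6 to 18 for SH against control, and 0 to 2 higher for IH against SH. Of all genes tested, 208 to 494 were higher and 168 to 485 lower for IH against control. For SH against control 397 to 872 of all genes were higher and 509 to 871 lower, and for IH against SH 46 to 114 were higher. The lowest counts of higher members against control, and of lower members in SH, came without the first control library, which also gave the lowest medians of all members (0.0461 in IH) and of KRAB members (0.115 in IH and 0.0361 in SH) against control. The median log2 fold change for SH against control was -0.0043 to 0.0861 over all members and -0.0657 to -0.0227 over other members, and for IH against SH -0.0052 to 0.0377 over other members. Zfp36 had -0.21 to 0.00036 in IH against control, and Zfp57 had -0.0232 to 0.237 in SH against control and -0.0507 to 0.247 in IH against SH.

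Directions of named members also turned. With both trends, the block and both trends, or GC trends removed, in that order, Zfp219 had 0.116, 0.0752 and 0.117 and Zfp385a 0.0475, 0.0606 and 0.0267 in IH against control, and Zfp385a had 0.0092, 0.0202 and 0.0023 and Zfp365 -0.0641, -0.0426 and -0.0406 in SH against control. With length trends removed Zfp365 had -0.0158 and Zfp57 -0.0051 in SH, and with both trends removed Zfp57 had -0.0240. With the block and both trends or with GC trends removed, Zfp330 had -0.0414 and -0.0464 in IH, and Zfp148 had -0.00099 and -0.0093 in SH. Of all refits of named members, 1400 kept direction and side of the threshold, 236 lost the call, 7 gained it and 23 turned. Same-numbered libraries correlated from -0.30 to 0.47, with 6 of 13 pairs over 0.1 and 5 libraries closest to their own number, so they were not treated as pairs.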

Other observations

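Some members had 1 or more libraries far below the rest, and these are given as values. Zfp125 was at 0 normalized counts in the first control library and at 99.0 to 170 in the other libraries. Zfp81 was at 77.5 in the fourth SH library and at 656 to 1011 elsewhere, and Zfp961 was at 41.9 in the fifth SH library and at 204 to 336 elsewhere. Zfp708, which was not tested, had 3.64, 0, 0 and 75.1 in the control libraries, 69.2 to 102 in IH, and 50.7, 53.3, 0, 93.7 and 67.4 in SH. Zfp959 had 35.5, 126, 13.1, 42.3 and 138 in the IH libraries and 101 to 108 in control. The SD of log2 values within groups was 0.19 in the median over members, 1.80 for Zfp125 and 0.94 for Zfp81.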
